A study of Mus musculus with 4 samples.

Results

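Among the 19805 tiled 60-base probes of the arrays, 90 probes (0.454%) showed enrichment of nascent DNA only in the shortest strands. They were selected on the measured ratio itself, the log2 of the nascent over the genomic DNA signal, averaged over repeated spots and centred on the median of each array. Each of the 90 lay in the top 10% on both arrays hybridised with 100–600 nt strands and below the median on both arrays hybridised with 300–800 nt strands. Their ratios are therefore a description of the selection and were not tested.

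The arrays covered a region of chromosome 3 and 2 zones of chromosome X, and were hybridised with DNA of the untreated, undifferentiated female mouse embryonic stem (ES) cell line PGK12.1. Nascent strands of 100–600 nt or 300–800 nt were cut from sucrose gradients, treated with λ-exonuclease and co-hybridised with total genomic DNA of the same cells, with 2 arrays per size fraction. Nascent DNA carried Cy5 on the 100–600 nt arrays and Cy3 on the 300–800 nt arrays. Both colours were made by random priming with dye-carrying dCTP, and the fractions were also run on different array prints and read by different software versions, so that fraction, dye, print and software cannot be told apart.

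A replication origin (ORI) is a site where DNA synthesis starts, and the first DNA made there is a short strand that begins with an RNA primer. λ-exonuclease digests broken DNA but not strands protected by this primer, so that sequence close to an ORI is over-represented in the digested short strands relative to genomic DNA. Shorter strands reach less far from the start site, and in mammalian cells many ORIs lie in CpG islands, the stretches rich in C, G and CpG dinucleotides found at many promoters. The study states that its shorter fraction likely also held Okazaki fragments, expected to come from the whole genome. These would raise the background and lower the enrichment, without favouring particular loci. Whether the signal of a probe in that fraction came from an ORI or from such fragments was not tested.

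Of the 90 members, 60 had no spot marked by the scanning software on any array. The 8 of these with the largest gap between the lower value on the 100–600 nt arrays and the higher value on the 300–800 nt arrays are printed here, because they carry the contrast most clearly. CpG dinucleotides are in capitals, and names give the fragment number of the array design and the start of the probe within that fragment.
Fragment 43425, offset 890: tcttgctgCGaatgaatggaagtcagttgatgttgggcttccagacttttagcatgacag
Fragment 45078, offset 180: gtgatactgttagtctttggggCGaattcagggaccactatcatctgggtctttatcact
Fragment 107303, offset 410: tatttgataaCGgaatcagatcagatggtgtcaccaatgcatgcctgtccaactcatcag
Fragment 45793, offset 740: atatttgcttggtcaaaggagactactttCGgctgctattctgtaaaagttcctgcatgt
Fragment 106555, offset 30: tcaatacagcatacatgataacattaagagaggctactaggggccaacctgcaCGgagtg
Fragment 66705, offset 1300: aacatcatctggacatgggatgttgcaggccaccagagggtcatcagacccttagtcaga
Fragment 44199, offset 380: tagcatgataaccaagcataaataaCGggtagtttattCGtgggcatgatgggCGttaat
Fragment 107835, offset 210: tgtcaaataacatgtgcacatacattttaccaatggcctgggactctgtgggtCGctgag
Of these 8 probes, 7 hold at least 1 CpG. Both members of lowest C+G content, at 30% each, hold CpG as well.
Fragment 42706, offset 1385: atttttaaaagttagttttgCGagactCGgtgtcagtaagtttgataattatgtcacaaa
Fragment 44706, offset 10: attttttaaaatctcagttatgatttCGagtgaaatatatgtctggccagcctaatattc

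The probe of fragment 43425 (45.0% C+G, zone 1 of chromosome X) had log2 ratios of 0.48 and 0.76 on the 100–600 nt arrays and -0.84 and -0.98 on the 300–800 nt arrays. Its fragment number lies 6 beyond that of the promoter probe of Hs6st2, which encodes a sulfotransferase of heparan sulfate. On 100–600 nt replicate 1 it lay only 0.0070 above the threshold for the top 10%, so that its large gap came mainly from the 300–800 nt arrays. The probe of fragment 45078 gave 0.54 and 0.76 against -0.72 and -0.74, between the promoter probes of Ccdc160 and Hprt, the latter a gene of purine salvage. The probe of fragment 45793 gave 0.58 and 0.89 against -0.61 and -0.63, and lay between those of Plac1, a gene expressed in the placenta, and Fam122c. In these 3 probes of zone 1 both 100–600 nt values were above, and both 300–800 nt values below, the respective medians of all probes by more than 0.47. For the 100–600 nt values this follows from the rule, with its limits of 0.47 and 0.66. For the 300–800 nt values the choice by largest gap favoured it.

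The probe of fragment 44199, also in zone 1, gave 0.51 and 0.79 against -0.57 and -0.57, and held 3 CpG in a sequence of 40.0% C+G. The probe of fragment 66705, in zone 2 of chromosome X, gave 0.59 and 0.71 against -0.51 and -0.55 and was the only one of the 8 without a CpG. On chromosome 3, the probe of fragment 107303 gave 0.67 and 0.80 against -0.55 and -0.62. The probe of fragment 106555, between the promoter probes of Pdzk1 and Gpr89, gave 0.80 and 0.97 against -0.35 and -0.49. The probe of fragment 107835, with promoter probes of Pde4dip on both sides, gave 0.70 and 0.71 against -0.39 and -0.34. Among all members, the highest gap, 1.75, was that of the single probe of fragment 43246, with 1.01 and 1.04 against -0.74 and -0.78, but 1 of its spots was marked by the software.

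Over the 90 members the log2 ratio ranged from 0.47 to 1.21 (median 0.61) on 100–600 nt replicate 1 and from 0.67 to 1.54 (median 0.82) on replicate 2. On the 300–800 nt arrays it ranged from -0.84 to -0.02 (median -0.22) and from -0.98 to -0.01 (median -0.22). The members sat just beyond the threshold on the first fraction and just under the median on the other: only 2 exceeded 1 on both 100–600 nt arrays, and 9 were below -0.5 on both 300–800 nt arrays. The gap between the fractions had a median of 0.86 and exceeded 1 in 18 members. For comparison, the 167 probes in the top 10% on all 4 arrays had medians of 0.70, 0.95, 1.47 and 1.49, so that on the 100–600 nt arrays the members were lower than those by 0.09 and 0.13 in the median.

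**Figure D1:**
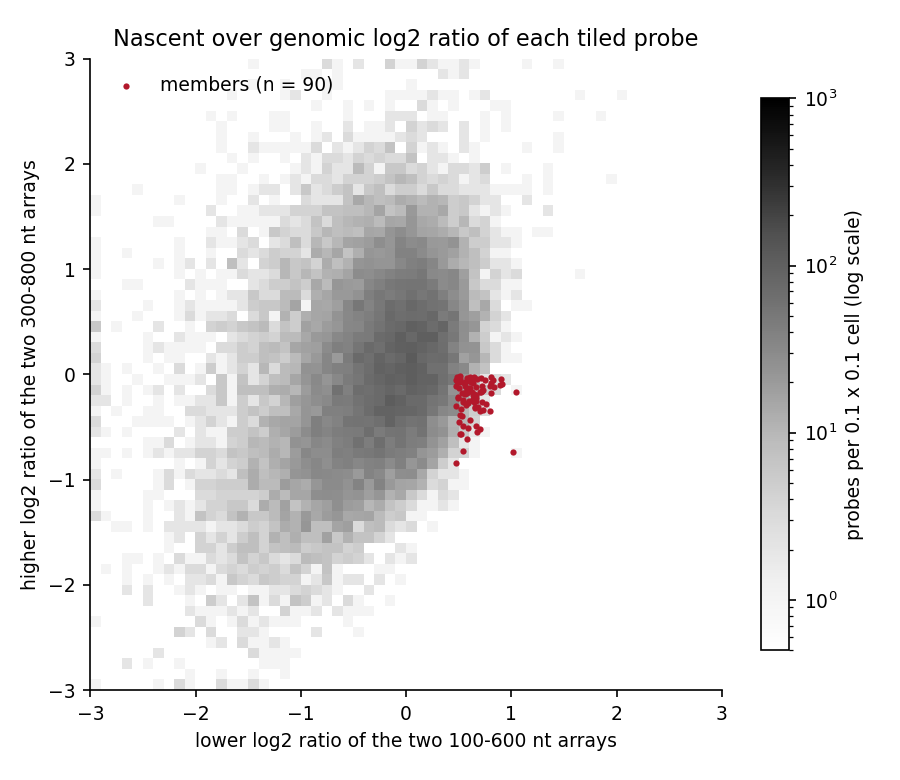
Each tiled probe is placed by the lower of its log2 ratios on the 100–600 nt arrays (x axis) and the higher of its log2 ratios on the 300–800 nt arrays (y axis); grey cells count all probes on a log scale, with values beyond 3 set at the edge, and red points are the 90 members. The members occupy the lower right margin of one continuous cloud, with only 18 of them past a gap of 1.

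The thresholds cut through this continuous distribution. The members nearest a threshold were the probe at offset 230 of fragment 66950, with 0.47, 0.93, -0.06 and -0.13, and the probe at offset 230 of fragment 43434, with 0.69, 0.67, -0.49 and -0.50. They passed the limit of the top 10% (0.47 on replicate 1, 0.66 on replicate 2) by 0.0014 and 0.0021. The nearest probes outside it, at offset 320 of fragment 43398 (0.49, 0.66, -0.43 and -0.43) and at offset 110 of fragment 109447 (0.56, 0.66, -0.30 and -0.38), missed it on replicate 2, with margins of -0.0002 and -0.00038.

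The 100–600 nt arrays differed from each other far more than the 300–800 nt arrays did. Across probes, the ratios correlated with r = 0.55 between the 100–600 nt arrays and r = 0.99 between the 300–800 nt arrays, as a description over 19805 probes. The median absolute difference between the 300–800 nt arrays, 0.0684, was below the 0.0781 and 0.0755 that the repeated spots of each array give for means of 2 spots. The spread between these arrays was thus smaller than that between spots. Per the file headers they lie on 1 slide, while the study describes them as biological replicates. The planned limma fit counted them as 2 arrays, and its p-values may therefore rest in part on technical spread. Each limma result is also given with these arrays averaged and counted as 1 sample. On the 100–600 nt print only 2 members had repeated spots, so that for the other 88 each value rests on a single spot.

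Only 663 probes (3.35%) were in the top 10% on both 100–600 nt arrays. Of these, 90 (13.6%) were below the median on both 300–800 nt arrays, 553 were above it on both and 20 on only 1. Over all probes, 47.9% were below the median on both 300–800 nt arrays. When probes were chosen without 100–600 nt replicate 1, 317 met the remaining conditions, and 90 of them (28.4%) were in the top 10% on the array left out, beside 7.39% of all probes that were below the median on both 300–800 nt arrays. Chosen without replicate 2, 701 probes met the conditions and 90 (12.8%) were in the top 10% on replicate 2, beside 3.34%. Probes chosen on 1 array thus reached the top 10% on the other more often than the background did, but most of them did not reach it. Both comparisons rest on the same overlap of 90 probes, so that they are 1 observation, given as a description.

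The members were richer in C+G and in CpG than the arrays as a whole, though not in C+G on chromosome 3. Their median C+G content was 45.0% (range 30% to 61.7%), against 41.7% for all probes and 53.3% for the probes high on all 4 arrays. At least 1 CpG was present in 62 members (68.9%), against 42.2% of all probes, 70.1% of the 663 probes in the top 10% on both 100–600 nt arrays, 79.6% of the probes high on all 4 arrays, and 40.4% of the 503 probes that showed the opposite pattern, in the top 10% on both 300–800 nt arrays and below the median on both 100–600 nt arrays. The share with a CpG was thus not particular to the members within the 663 probes from which they come. Members averaged 1.08 CpG per probe, all probes 0.598, the 663 probes 1.55 and the probes high on all 4 arrays 2.50. Members were C+G-poorer than the probes shared by both fractions, and no member held more than 4 CpG.

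The higher CpG content was not confined to the C+G-rich members. Among probes under 40% C+G, 7 of 15 members (46.7%) held a CpG, against 28.3% of all probes in that class. The shares were 64.3% against 41.2% between 40 and 45%, 73.3% against 48.8% between 45 and 50%, and 88.2% against 67.7% at 50% or more. Within each of these 4 classes a larger share of members than of all probes held a CpG. The share of members among probes was 0.245% without a CpG, 0.674% with 1, 0.690% with 2, 1.55% with 3 and 1.32% with 4 or more. In that last class 85 of 228 probes (37.3%) were in the top 10% on both 100–600 nt arrays, but only 3 of the 85 (3.53%) were members, against 14.1% of the 198 such probes without a CpG.

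Members also held more G than C on the printed strand. G made up 23.9% and C 20.5% of their bases, against 21.0% and 21.2% in all probes. G outnumbered C in 57 members (63.3%), against 46.2% of all probes and 43.7% of the 663 probes high on both 100–600 nt arrays, and C outnumbered G in 26. A run of GGG was present in 57.8% of members and 40.7% of all probes, and a run of CCC in 28.9% and 41.6%; only the probe strand was searched and a sequence may hold both. The 503 probes of opposite pattern showed the reverse, with 27.7% C and 18.2% G, GGG in 31.4% and CCC in 73.6%. Neither GGG nor the G excess was particular to the members. Of the 167 probes high on all 4 arrays, 57.5% held GGG, but 65.9% held CCC and only 36.5% had more G than C. In the 355 probes in the bottom 10% on all 4 arrays, G outnumbered C in 72.7%. GGG was present in 49.3% of these and CCC in 24.8%. The member of highest C+G content, at offset 710 of fragment 67523, had 23 G and 14 C, with log2 ratios of 0.65, 0.75, -0.26 and -0.43 and a marked spot on 1 array.

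**Figure D2:**
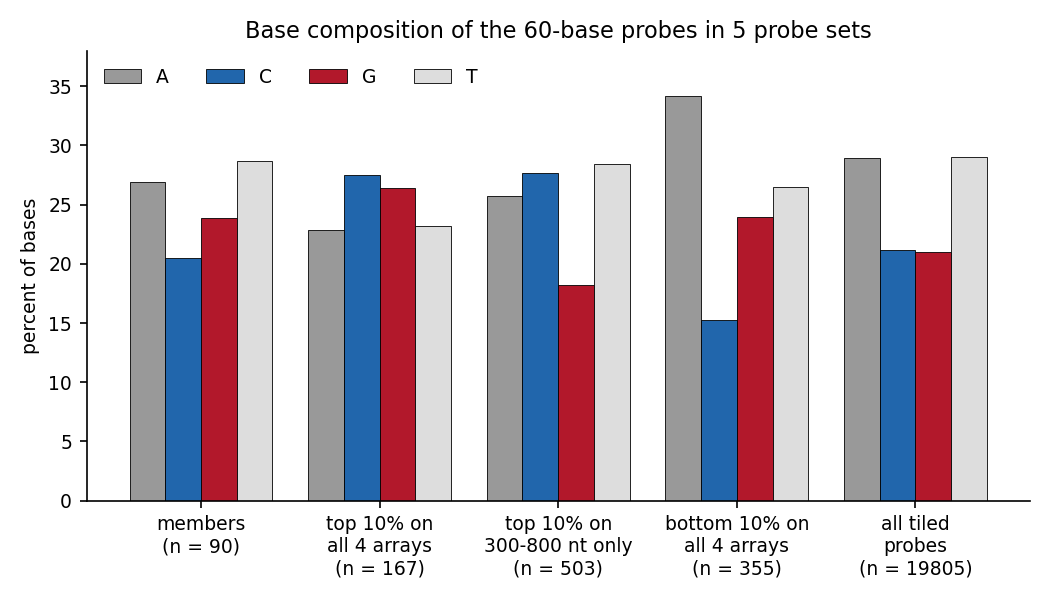
Bars give the percent of A, C, G and T over all bases of the probes in each set, with the number of probes under each name. Members hold 23.9% G and 20.5% C, the probes high only on the 300–800 nt arrays 18.2% G and 27.7% C, and all probes nearly equal amounts.

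The ratio itself followed the G and C content of the probe differently on each array. Across all probes, the correlation of the ratio with the number of C was -0.18 on 100–600 nt replicate 1, 0.31 on replicate 2, and 0.47 and 0.47 on the 300–800 nt arrays. With the number of G it was 0.26, -0.07, -0.20 and -0.21. All points share the array and its dyes, and these values are given as a description. The replicates of the 100–600 nt fraction thus ran in opposite directions, with replicate 2 on the side of the 300–800 nt arrays. In probes with 10 to 25 more C than G, the medians were -0.59, 0.02, 0.38 and 0.39, and 0 of 1687 such probes were members, while 142 were of the opposite pattern. In probes with 2 to 4 more G than C, the medians were 0.13, -0.04, -0.14 and -0.14, and 25 of 3156 (0.792%) were members.

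**Figure D3:**
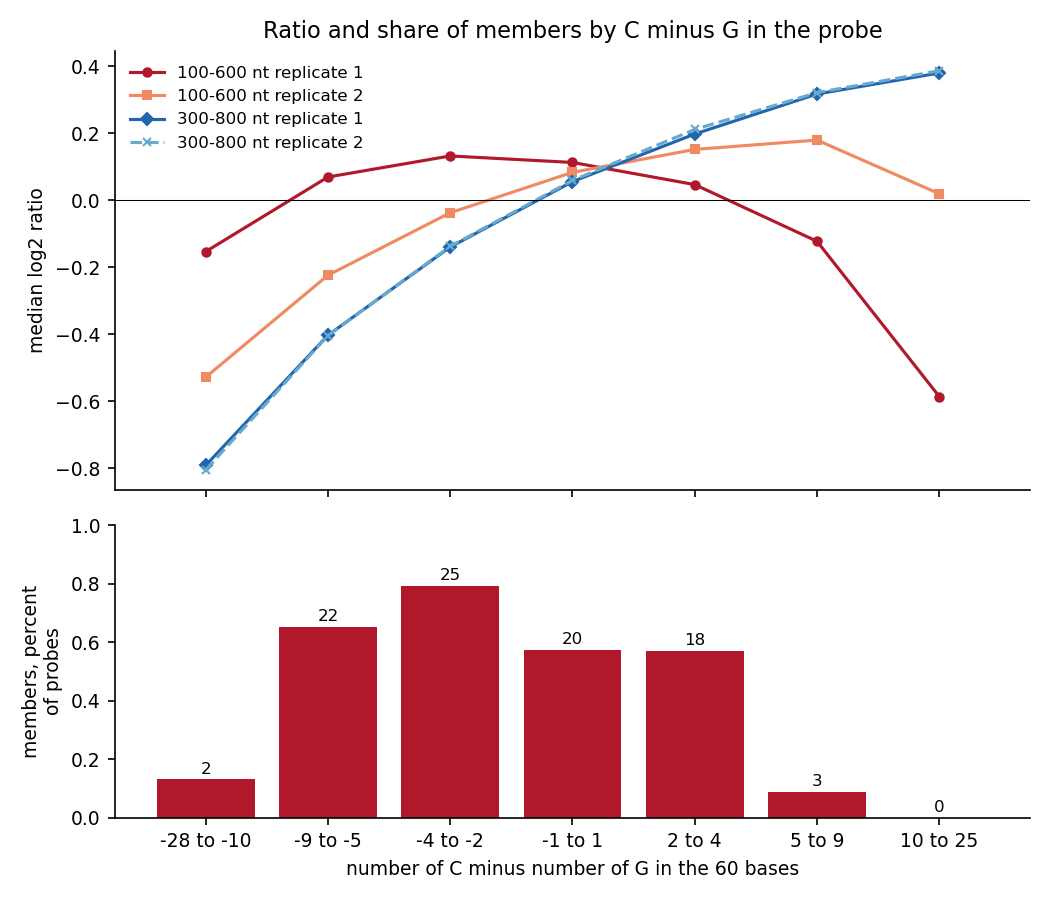
The upper panel gives the median log2 ratio of all probes on each of the 4 arrays by the number of C minus the number of G in the probe, and the lower panel the percent of probes in each class that are members, with their number above the bar. Replicate 1 of the 100–600 nt strands falls at high C while both 300–800 nt arrays rise, and 87 of the 90 members lie in the classes up to 4 more C than G.

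When the linear dependence on the numbers of A, C and G was removed from each array, an alternative chosen after seeing the data, 124 probes met the rule and 47 of the 90 members (52.2%) were among them. In these 124 the G excess was gone, with 23.5% C and 21.1% G, while 62.1% held a CpG. Without 100–600 nt replicate 1, 44.5% of the 317 chosen probes held more G than C, below the 46.2% of all probes, and without replicate 2, 77.6% of 701 did. The excess of G over C was thus absent when replicate 1 was left out of the rule. It was also absent, at 43.7%, among the 663 probes high on both 100–600 nt arrays, which were chosen without the longer strands. The excess therefore did not come with replicate 1 alone, and its source was not tested. The share with a CpG was above the 42.2% of all probes under each of the 12 other settings of the rule or the normalisation, from 52.2% to 85.7%.

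The members differed from all probes in both channels of the arrays. On 100–600 nt replicate 1 the median nascent signal of the members was 430 and that of all probes 288, while the genomic signals were 97.3 and 103. On replicate 2 the nascent medians were 1182 and 742 and the genomic medians 243 and 269. The members were thus 1.50 and 1.59 times as bright in the nascent channel and 0.946 and 0.905 times as bright in the genomic channel. The direction in the genomic channel was not stable, since the mean factor of 0.925 turned to 1.05 among members chosen after normexp and to 1.12 with the base counts removed. On the 300–800 nt arrays the nascent medians were also above those of all probes, 835 against 754 and 795 against 748, and the genomic medians exceeded them more, 1033 against 823 and 1047 against 819. In the longer fraction the genomic medians of members were thus 1.26 and 1.28 times those of all probes, and the nascent medians were not below them. A raised genomic signal was not particular to the members. The factors were 1.44 and 1.44 for the probes high on all 4 arrays, and 2.28 and 2.18 for the probes of opposite pattern. Both signals are part of the ratio that the rule used, so that these values are a description only. All spots of the members were well above background in both channels.

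Marked spots were unevenly spread. On 100–600 nt replicate 1, 18 members (20.0%) had a spot marked by the software against 7.47% of all probes, on replicate 2 it was 14 (15.6%) against 17.2%, and on the 300–800 nt arrays none. All 18 and all 14 of these spots were marked as not uniform in the nascent channel. On replicate 1 the share was also raised in the probes high on all 4 arrays (12.6%) and those of opposite pattern (12.5%), but not in the bottom 10% (5.92%). On replicate 2 these shares were 24.6%, 16.3% and 11.8%. Leaving out marked spots, 62 probes met the rule, of which 61 were members.

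Within fragments, members lay mostly as single probes. The 90 lay in 88 fragments, and only fragments 67095 and 45487 held 2. However, 30 members (33.3%) were the only probe of their fragment, against 35.1% of all probes, and could have no neighbour there. Neighbours across a fragment boundary were not counted. The members at offset 700 of fragment 43747 and offset 210 of fragment 43748 followed each other directly in tile order. Of the 86 positions next to a member in the same fragment, 2 (2.33%) were members, namely the pair of fragment 45487, beside 0.454% of all probes. Among the probes high on all 4 arrays, 26 of 208 neighbouring positions (12.5%) belonged to that set, which held 0.843% of all probes. The members at offsets 230 and 540 of fragment 45487 gave 0.55, 1.25, -0.08 and -0.09, and 0.48, 0.88, -0.06 and -0.17. The next probe of that fragment, at offset 720, gave 0.12, 1.17, 1.21 and 1.17, and was thus high on the 300–800 nt arrays.

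The probes adjacent to members had not been used to choose them. Of 83 adjacent probes that were not members, at a median distance of 255 bp from start to start, the median log2 ratio was -0.03 and 0.09 on the 100–600 nt arrays and 0.28 and 0.31 on the 300–800 nt arrays. The difference of 100–600 nt minus 300–800 nt had a median of -0.07, against 0.02 over all probes. This median turned to 0.07 when members were chosen in the top 5%, with 20 adjacent probes, and was -0.02 when 100–600 nt replicate 1 was left out and -0.03 without marked spots. Of the 83 neighbours, 28 (33.7%) were below the median on both 300–800 nt arrays, against 47.9% of all probes. All probes include the 35.1% that are alone in their fragment and can be no neighbour. The share was 38.2% next to probes of opposite pattern, 21.9% next to probes high on all 4 arrays and 57.8% next to probes in the bottom 10% on all 4. A share under 47.9% was thus not particular to neighbours of members. Yet 8 of the 83 (9.64%) were in the top 10% on both 100–600 nt arrays, against 3.35% of all probes. They held on average 13.5 C and 12.8 G, while members held 12.3 C and 14.4 G.

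In a limma fit over all probes and the 4 arrays, 12 of the 83 adjacent probes (14.5%) were higher in 100–600 nt strands at a Benjamini-Hochberg adjusted p under 0.05, beside 14.3% of all probes. A further 20 (24.1%) were lower, beside 17.5%. The share of neighbours that were higher in the shorter strands was thus near the background. With the 300–800 nt arrays averaged and counted as 1, the spread came from the 100–600 nt arrays alone, and the lone sample was assumed to vary like them. That limma fit called 0 of the 83 higher, beside 0.550% of all probes, and 4 lower (4.82%), beside 5.00%, and at an unadjusted p under 0.05 it gave 4 higher and 14 lower. At so low a background a count of 0 among 83 probes says nothing about the neighbours.

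In fragment 43425, which holds 10 probes over 2543 bp, the member at offset 890 was followed by probes at offsets 1040 and 1270 that were also higher in the shorter strands by limma. The probe at offset 1040 gave -0.16, -0.18, -0.83 and -0.86 (difference 0.67, adjusted p = 0.026), and so was below the median on all 4 arrays. The probe at offset 1270 gave 0.33, 0.07, -0.45 and -0.62 (difference 0.73, adjusted p = 0.036). The probe at offset 70 was higher as well, with 0.39, 0.74, -0.32 and -0.39 (difference 0.92, adjusted p = 0.025), and missed the rule on replicate 1. The probe at offset 340 was lower, with -0.31, -1.22, 1.80 and 1.74 (difference -2.54, adjusted p = 0.013), and so was that at offset 1970 (difference -1.33, adjusted p = 0.023). With the 300–800 nt arrays averaged and counted as 1, limma kept the call at offset 340 (adjusted p = 0.0034) and lost those at offsets 70, 1040, 1270 and 1970, with adjusted p from 0.088 to 0.39.

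**Figure D4:**
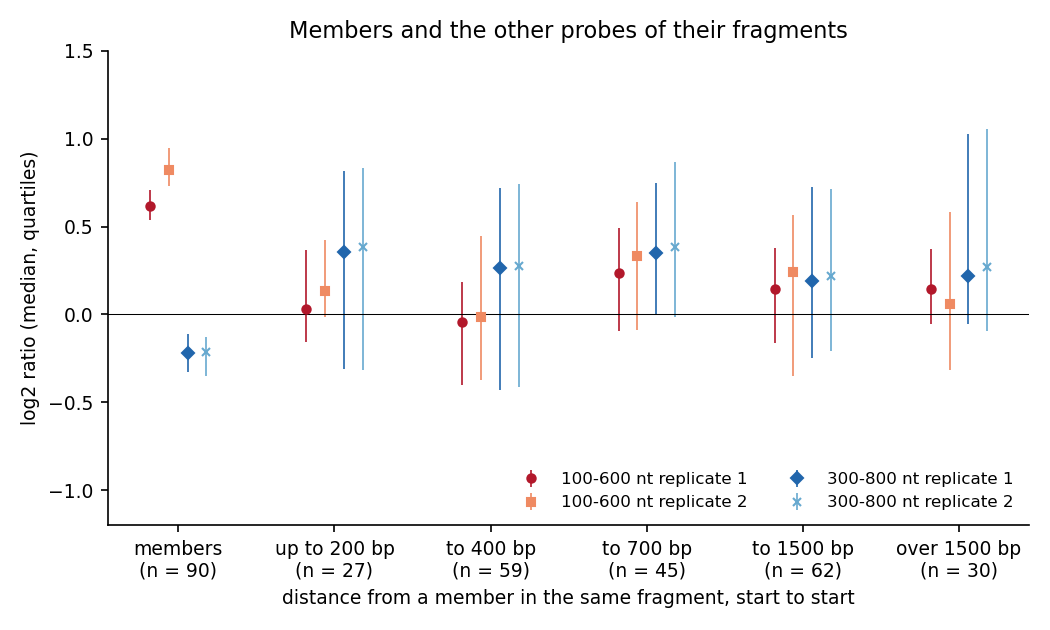
Points give the median and bars the quartiles of the log2 ratio on each of the 4 arrays, for the 90 members and for the other probes of their fragments by distance from a member. Within 200 bp the medians are 0.03 and 0.13 on the 100–600 nt arrays and 0.35 and 0.39 on the 300–800 nt arrays, so these probes do not show the contrast of the members.

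Members were unevenly divided among the 3 regions. Zone 1 of chromosome X held 50 members among 5882 probes (0.850%), zone 2 held 27 among 7081 (0.381%), and chromosome 3 held 13 among 6842 (0.190%). The probes in the top 10% on both 100–600 nt arrays were less uneven, with 3.66%, 3.74% and 2.67%. Of those, the share below the median on both 300–800 nt arrays was 23.3% in zone 1, 10.2% in zone 2 and 7.10% on chromosome 3, while 50.0%, 46.6% and 47.4% of all probes of the regions were. Probes of zone 1 matched the RefSeq promoter windows of 19 genes, against 44 in zone 2 and 41 on chromosome 3. The probes high on all 4 arrays were in contrast least frequent in zone 1, with 0.527%, against 0.974% and 0.979%.

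As a share of the probes of a region, members were most frequent in zone 1 under each of the 12 other settings. Without 100–600 nt replicate 2, however, the shares were nearly even, at 3.88% in zone 1, 3.54% in zone 2 and 3.24% on chromosome 3, and zone 2 held more of the 701 probes (251) than zone 1 (228). Without replicate 1 they were 2.69%, 1.24% and 1.04%. With each region cut into 10 equal parts in tile order, every part of zone 1 held from 1 to 8 members, so that no single locus made up its share. On chromosome 3, 3 of the 10 parts held none, and in zone 2, 1. Median C+G of the members was 45.0% in zone 1 and 46.7% in zone 2, against 41.7% for all probes of each, but on chromosome 3 it was 43.3% for both. The mean number of CpG was 1.04, 0.963 and 1.46, against 0.573, 0.459 and 0.765 for all probes of these regions.

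**Figure D5:**
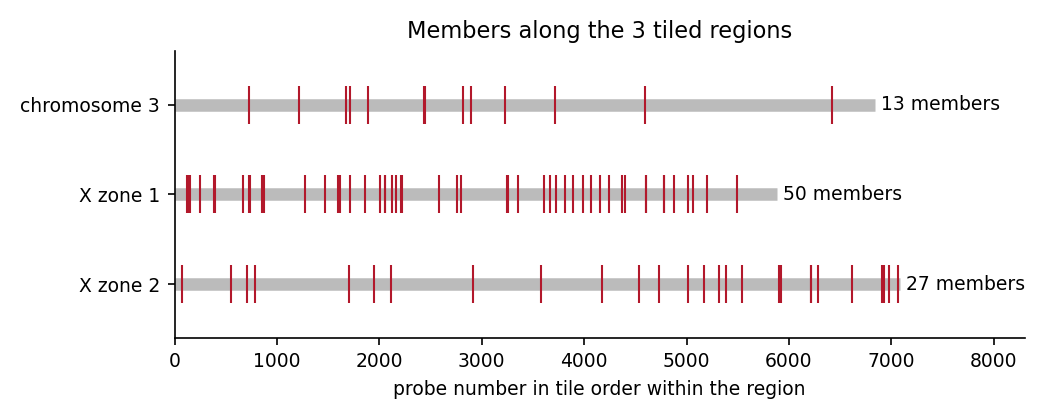
Each grey line is a tiled region with its probes in order along the x axis, and each red tick is a member. The 50 members of zone 1 of chromosome X are spread over its whole length, and 13 lie on chromosome 3.

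No member lay in a promoter window, from 250 bases before to 50 after the start of a RefSeq gene (build GRCm38.p6), by an exact match of all 60 bases on either strand. Such a match was found for 125 of all probes (0.631%), for 104 genes, and for 9 of the 167 probes high on all 4 arrays (5.39%). At so low a share over all probes, a count of 0 among 90 members says nothing about them. Fragments that hold a matched promoter probe contained 4 members (4.44%), against 2.75% of all probes and 20.4% of the probes high on all 4 arrays. These were 2 in the fragment of Naa10, the catalytic subunit of an N-terminal acetyltransferase, and 1 each in those of Atp6ap1, an accessory subunit of the vacuolar proton pump, and of Kis2. So small a count is not read as a difference from all probes. The Naa10 pair, at offsets 1340 and 1890 of fragment 67095, gave 0.81, 0.86, -0.18 and -0.18, and 0.71, 0.82, -0.55 and -0.52. Between them, the probe at offset 1540 gave -0.29, 0.25, 1.11 and 1.14 and was lower in the shorter strands (limma difference -1.15, adjusted p = 0.025), a call lost with the 300–800 nt arrays averaged (adjusted p = 0.14).

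The promoter probe of Naa10 at offset 760, 580 bp from the nearer member, gave 0.76, -0.37, 1.04 and 1.05. Another promoter probe of Naa10, at offset 610, gave 0.88, 0.26, 0.38 and 0.39. Both were above the median on the 300–800 nt arrays, where the members of the fragment were below it. Only the probe at offset 760 was in the top 10% there. The member in the fragment of Kis2 lay 820 bp from the promoter probe and gave 0.63, 1.54, -0.07 and -0.04, the highest value of any member on 100–600 nt replicate 2. The member in the fragment of Atp6ap1, already given as that of highest C+G, lay 180 bp from it. All 150 probe sequences that the study lists at its ORIs matched probes of the arrays (0.757%). The list was chosen for high ratios on the 300–800 nt arrays, where members are low by the rule, so that it could hold none of them. Of the members, 1 (1.11%) lay in a fragment with a listed probe, against 2.91% of all probes.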

How the data were processed

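For each of the 4 two-colour Agilent arrays the authors deposited the output of Feature Extraction, version 7.5.1 for the 100–600 nt and 9.5.3.1 for the 300–800 nt arrays, with signal intensities per spot in both dyes. Both versions had subtracted the background, and only the later one had normalised the dyes. Arrays were grouped by strand size as their labels give it. Tiled probes were taken by name, with every spot of positive signal, 1 or 3 per probe on the first print and 2 on the second. Another 24 probes of the 100–600 nt arrays that carry other names were left out. Positions are those within the fragments of the array design, since no genome or annotation of the design's build was used here, and whether a member lies in an exon, an intron or a UTR was not analysed here. Sequences are those of the array files and were not printed for fragments that hold a promoter probe.

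Fractions were compared with limma 3.58.1 in R 4.3.3, with a Benjamini-Hochberg adjusted p under 0.05 and no block, and the fit was tested on simulated data. Other values were computed in Python 3.11 with pandas 2.3.3. The 2 arrays per fraction limit the precision, and the p-values measure the spread between these arrays. The members, lists and settings were chosen with earlier results of these data known. Probes named were the 8 of largest gap without a marked spot, those of the 4 fragments with most members (ties by gap), the 2 nearest each side of a threshold, and those of highest and lowest C+G. Alternatives were loess within arrays, normexp with an offset of 50 on raw and local background intensities (mean signals on the 100–600 nt arrays and median signals on the others), marked spots left out, other thresholds, the trend on C+G or on the base counts removed, and each array left out. Whether the hybridisation numbers pair the arrays could not be decided. The correlation between their deviations was -0.00211. However, the arrays of the longer strands differed by less than their repeated spots, so that this value can neither show nor exclude pairing.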

Additional observations from a re-analysis of the deposited data

How the results depend on the processing

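The main count was 90 members. It was 159 with loess, 27 with the top 5%, 349 with the top 20% and 7 with the limit at the 25th percentile. It ranged from 97 to 701 when 1 array was left out, the highest without 100–600 nt replicate 2 and 317 without replicate 1. For other thresholds and left-out arrays the direction of the change was fixed by the rule. A dropped or looser condition keeps all 90 members, and a stricter one can only remove some. Membership changed as well. Of the 90 members, 47 (52.2%) were also chosen with loess, the kind of normalisation the study used. With normexp 46 (51.1%) were, and with the C+G trend removed 58 (64.4%). The excess of median C+G over all probes, 3.33 percentage points, was 6.67 with loess, 1.67 with normexp, with the C+G trend removed, with the base counts removed and with the top 20%, and 0 with the 25th percentile, and was 1.67 to 3.33 without each array. The percent of members with an adjacent member, 2.22%, was 0% with the C+G trend removed, the top 5% or the 25th percentile, and 1.26% to 4.56% without each array. The median difference between fractions at adjacent probes, -0.0750, turned to 0.0719 with the top 5% (20 adjacent probes), was -0.321 with normexp, -0.0280 with marked spots left out and -0.313 with the 25th percentile, and -0.118 to -0.0185 without each array. The genomic signal of members over all probes on the 100–600 nt arrays, 0.925, turned to 1.05 with normexp and 1.12 with the base counts removed. It was 0.990 with loess, 0.867 with marked spots left out, 0.976 with the C+G trend removed, 0.969 and 0.979 with the top 5% and 20%, and 0.882 with the 25th percentile, and 0.851 to 0.998 without each array. The cause of these changes was not tested.

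The percent of adjacent probes called higher in 100–600 nt strands by limma, 14.5%, was also 14.5% in the paired fit with the hybridisation number as a replicate block, beside 16.4% of all probes. After normexp, limma called 3 of the same 83 probes higher, beside 1.13% of all probes. Of the 64 neighbours of members chosen after normexp, 10 passed an unadjusted limma p under 0.05. With these 64 the percent called higher was 0%, which beside 1.13% says nothing about them. It ranged from 0% without either 300–800 nt array, beside 0.702% and 0.596% of all probes, to 40.4% without 100–600 nt replicate 1, beside 38.5%. With 1 spot per probe on the 100–600 nt arrays, a single spot decides most members' values.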
